A study of Mus musculus with 295 samples.

Results

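The collagen genes and the genes of enzymes that modify or cross-link collagen were described over the adipose tissue of 295 F2 mice. A gene was a member when its symbol in the array's probe table had the form of a collagen chain, or was that of a lysyl oxidase (Lox, Loxl1, Loxl2, Loxl3, Loxl4) or a lysyl hydroxylase (Plod1, Plod2, Plod3). The table named 41 such genes by 47 probes. Requiring a probe to be measured on 90% or more of the arrays left 39 of the 11454 genes measured that way: 32 collagen genes, 4 lysyl oxidase genes and 3 lysyl hydroxylase genes. Among them were 9 fibrillar collagen genes (Col1a1, Col1a2, Col2a1, Col5a1, Col5a2, Col5a3, Col11a1, Col11a2, Col27a1) and 4 basement membrane collagen genes (Col4a1, Col4a3, Col4a4, Col4a6). Col4a2 and Col6a3 were measured on 139 and 99 arrays and fell under the limit, and no probe carried the name Col3a1, Col4a5 or Loxl2, which were not analysed here. Another 3 probes named Col1a1 carried a gene identifier absent from the mouse gene table and were set aside.

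Each mouse was an F2 offspring of the C57BL/J6 and C3H/HeJ strains, and both strains carried the ApoE null allele, so every animal lacked apolipoprotein E, the protein by which remnant lipoproteins are cleared from blood. All animals ate a fat-rich Western diet between week 8 and week 24 of age. Females and males were both used, but the labels give no mouse's sex, genotype or weight, so all mice form 1 group and there is no control group. RNA of 1 mouse, labelled Cy3, was hybridised on each 2-colour array against Cy5-labelled RNA pooled in equal parts from all mice, and no array was repeated, so every p-value below measures a spread between mice that includes the technical spread of single arrays.

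Values are log2 ratios of a mouse to the pool, with positive values for more RNA in the mouse. The deposited ratios state no scale, centring or direction. The log10 base was read from their limits of -2 and 2, and the direction from the dyes in the labels and from the mean ratio of a probe, which fell with its variance (slope -1.63). Correlations and counts of called genes below do not depend on the base, while sizes in log2 units and counts of mice past a log2 value do. Of 43365 pairs of arrays, 951 had a correlation under -0.3 over all probes, down to -0.52, and each of these pairs held 1 array with epididymis transcripts. Arrays fell into 3 sets by marker transcripts: 142 arrays low in Eif2s3y, a Y-linked gene, 105 arrays high in Eif2s3y without epididymis transcripts, and 48 arrays with them. These sets are not groups of the study, so they entered every fit as a block, and a correlation below, written r, is over all mice after centring within the 3 sets. Ratios to a pool cannot show whether a marker of adipocytes is abundant, so the labelled tissue was checked only by the marker scores varying together (mean pairwise r of 8 adipocyte markers 0.57).

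Fibrillar collagens assemble side by side into the tensile fibres of the interstitium, with type I as the bulk and types V and XI as minor chains that set fibril size. Type IV collagen forms the sheet-like network of basement membranes, which in fat surround every adipocyte and capillary, and types XV and XVIII sit where that sheet meets the interstitium. Lysyl hydroxylases modify collagen chains inside the cell, and lysyl oxidases cross-link the secreted fibres, a step that stiffens fat as it becomes fibrotic.

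Start-site sequence is shown for 5 members called in the comparison of Col1a1 with Col4a1 described below, with exactly 1 window in the promoter table. Among such members nearer Col4a1, the 3 with the highest r with Col4a1 were taken. Among those nearer Col1a1, the 2 with the highest r with Col1a1 were taken. They were not chosen by the size of the contrast. Each run is the 250 bases before the gene's start, 5′ to 3′ on the gene's strand, from RefSeq on build GRCm38.p6. Capitals mark 3 motifs, each searched on both strands. They are the GC box core GGGCGG, which reads CCGCCC when it lies on the opposite strand. The next is the CCAAT box, searched by those letters. The third is the TATA box, searched as TATAAA. The first 3 genes followed Col4a1 more closely and the last 2 followed Col1a1.
Col5a3 (chr9:20815068-20815317, minus strand): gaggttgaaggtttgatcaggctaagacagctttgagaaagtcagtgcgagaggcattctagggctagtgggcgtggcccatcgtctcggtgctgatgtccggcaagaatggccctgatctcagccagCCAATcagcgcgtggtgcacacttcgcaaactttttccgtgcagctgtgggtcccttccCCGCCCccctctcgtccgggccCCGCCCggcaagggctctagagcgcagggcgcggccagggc
Col6a1 (chr10:76726045-76726294, minus strand): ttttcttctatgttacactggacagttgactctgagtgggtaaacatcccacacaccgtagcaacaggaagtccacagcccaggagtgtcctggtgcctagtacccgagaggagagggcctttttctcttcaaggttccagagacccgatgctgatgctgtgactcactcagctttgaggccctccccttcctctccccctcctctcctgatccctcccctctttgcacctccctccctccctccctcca
Col5a1 (chr2:27886175-27886424, plus strand): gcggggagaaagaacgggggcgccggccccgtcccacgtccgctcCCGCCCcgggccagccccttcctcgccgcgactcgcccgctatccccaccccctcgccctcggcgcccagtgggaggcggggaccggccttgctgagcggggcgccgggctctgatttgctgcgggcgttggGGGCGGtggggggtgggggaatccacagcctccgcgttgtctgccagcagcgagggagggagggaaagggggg
Col1a2 (chr6:4505368-4505617, plus strand): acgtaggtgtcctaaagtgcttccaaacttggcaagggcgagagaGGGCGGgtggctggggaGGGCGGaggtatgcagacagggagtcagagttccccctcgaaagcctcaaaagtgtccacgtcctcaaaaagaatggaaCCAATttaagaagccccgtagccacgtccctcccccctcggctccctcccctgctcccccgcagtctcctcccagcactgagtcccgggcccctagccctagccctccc
Col8a1 (chr16:57754738-57754987, minus strand): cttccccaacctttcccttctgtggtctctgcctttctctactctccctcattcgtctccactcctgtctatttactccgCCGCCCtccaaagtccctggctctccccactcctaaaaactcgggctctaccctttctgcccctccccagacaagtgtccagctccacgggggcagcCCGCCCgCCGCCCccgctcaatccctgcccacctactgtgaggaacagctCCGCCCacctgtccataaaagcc
Of the 39 members, 28 had a window in the table. A member counted as holding a motif when any of its windows did, while shares of all windows are per window, so these measures differ. GGGCGG was present in 8 of the 8 genes nearer Col1a1, in 5 of the 12 nearer Col4a1 and in 18 of the 28 members. It was present in 32.7% of the 32851 windows of all genes. CCAAT was present in 4 of the 8 and 5 of the 12, against 33.8% of all windows, and TATAAA in 1 of the 8 and 3 of the 12, against 12.4%. A match is a description of these letters and not of a bound factor. Col4a1 and Col4a2, the 2 chains of the ubiquitous type IV collagen, lie head to head on chromosome 8, and their annotated starts overlap by 22 bases (chr8:11312805-11312826, plus strand).
Col4a1 and Col4a2 shared start: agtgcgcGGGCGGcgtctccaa
That stretch holds 1 copy of GGGCGG.

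Members differed widely in how much they varied from mouse to mouse. Col8a1, a chain of a short network collagen of vessel walls, ran from -2.59 through a median of -0.74 to 2.42 with an SD of 1.08 (n = 295), a larger SD than 97.0% of all genes. Col11a1, a minor fibrillar chain, had an SD of 1.02 and Col17a1, the hemidesmosome collagen of basal epithelial cells, 0.90. At the other end, the enzyme gene Loxl4 and the fibrillar Col11a2 had an SD of 0.16 each, against a median SD of 0.31 over all genes. Col11a1 spanned similar ranges in the Eif2s3y-low arrays (-2.14 to 2.74) and the Eif2s3y-high arrays without epididymis transcripts (-1.93 to 2.65). In the arrays with epididymis transcripts it ran from -0.76 to 1.67. The ranges of Col8a1 and Col17a1 differed more between sets, though they overlapped. Col8a1 lay between -2.59 and -0.20 in the Eif2s3y-low arrays and between -1.12 and 2.42 in the Eif2s3y-high arrays without epididymis transcripts. Col17a1 lay between 0.39 and 2.36 in the arrays with epididymis transcripts and between -1.66 and 1.72 in the others. The score of 8 epithelial markers, all measured, lay between 1.12 and 2.06 in the arrays with epididymis transcripts and between -1.20 and 1.91 in the others, and the part of epithelial RNA in the Col17a1 levels was not tested.

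**Figure D1:**
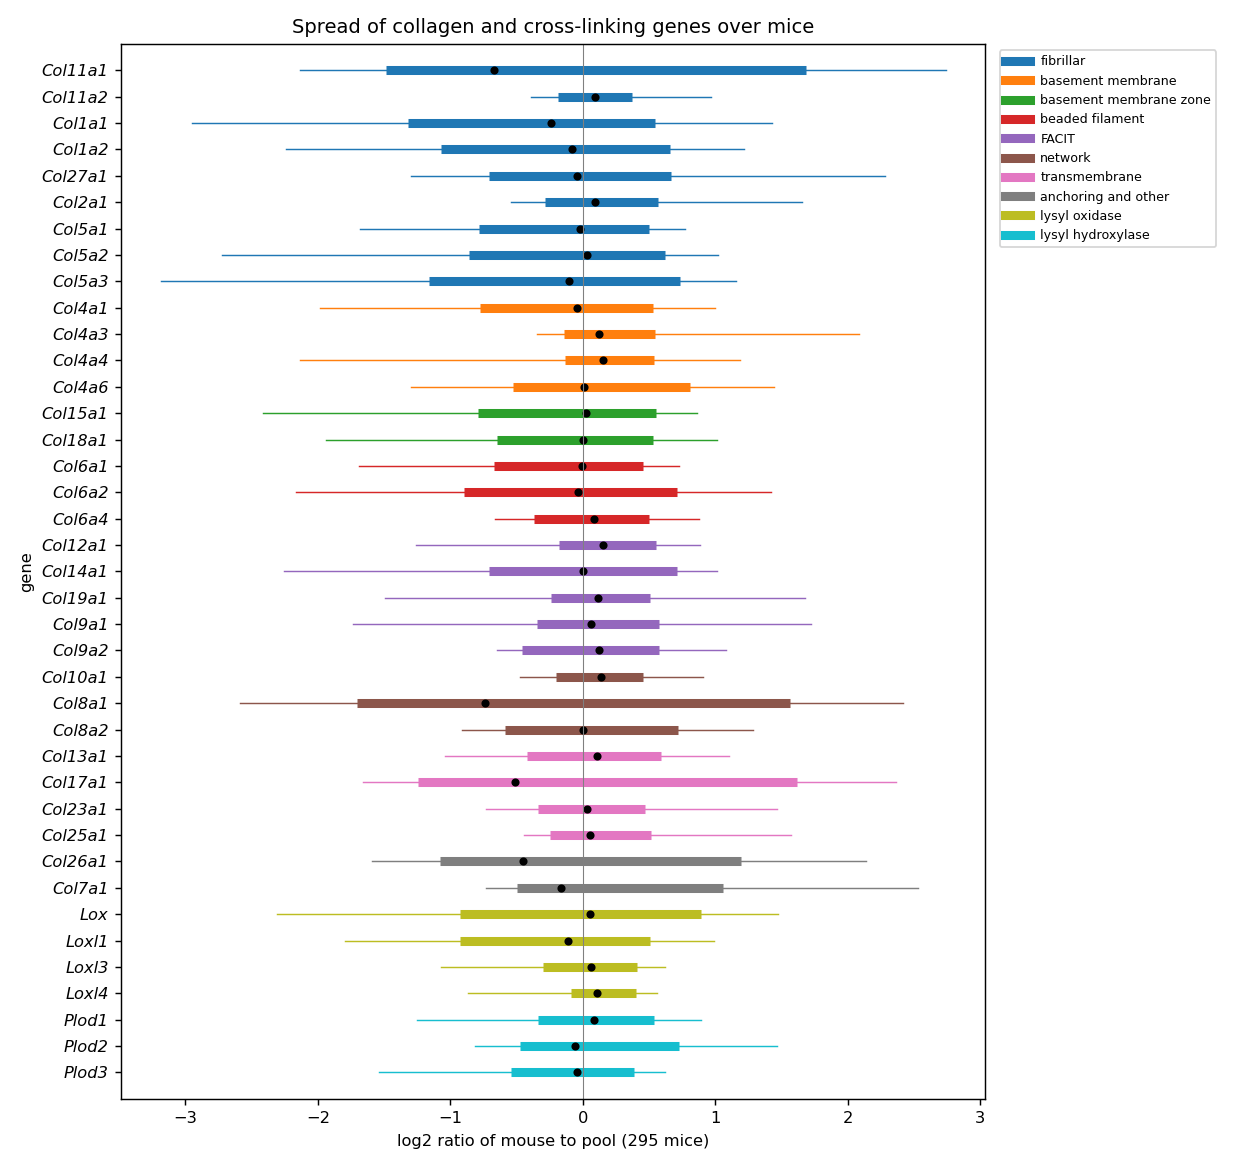
Log2 ratio of mouse to pool (x axis) for each of the 39 members (y axis, coloured by class) over 295 mice. The point is the median, the thick bar spans the 5th to the 95th percentile and the thin line the lowest to the highest mouse; Col8a1, Col11a1 and Col17a1 have the longest thick bars.

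The genes of the main fibrillar collagen were measured with long lower tails. Col1a1, the alpha1 chain of type I collagen, ran from -2.95 through -0.24 to 1.43, and 36 mice lay below -1 while 3 lay above 1. Col1a2, its partner chain, ran from -2.24 through -0.08 to 1.22. Col5a1, Col5a2 and Col5a3, the chains of type V collagen, had their lowest values at -1.68, -2.72 and -3.19 and their highest at 0.77, 1.02 and 1.16. Among basement membrane genes, Col4a1 ran from -1.98 through -0.04 to 0.995, and the chains of specialised basement membranes Col4a3 and Col4a4 had medians of 0.12 and 0.15 with SDs of 0.24 and 0.28. The 3 lysyl hydroxylase genes and the lysyl oxidases had SDs between 0.16 (Loxl4) and 0.61 (Lox). No member except Col8a1, Col11a1, Col17a1, Col26a1 and Col7a1 was above 1 on more than 11 arrays.

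Some of these low tails were shared by a few mice. For 16 of the 39 members, the lowest value came from 1 of 3 arrays: mouse 12 and mouse 112 were lowest for 6 members each and mouse 195 for 4. Mouse 112 had -2.95 for Col1a1 and -2.72 for Col5a2, mouse 195 had -3.19 for Col5a3 and -1.98 for Col4a1, and mouse 12 had -1.07 for Loxl3. All 3 were also low in Lep, at -0.85, -0.81 and -1.38 for mice 12, 112 and 195. The SD over all probes of mouse 12's array was 1.15, against a median array SD of 0.55. Counts that moved when the 3 arrays were left out are given below with both values for Lep, the anchors and the 4 cell type scores.

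Pairs of fibrillar members had a mean r of 0.23 over 36 pairs (SD over pairs 0.28), pairs of basement membrane members 0.09 over 6 pairs (SD 0.08), and a fibrillar with a basement membrane member 0.08 over 36 pairs (SD 0.26). The mean was 0.10 over all 741 member pairs and 0.003 over all pairs of genes. An r of 0.5 or more was found in 55 member pairs, or 7.42%, against 3.65% of all pairs of genes. The 4 basement membrane members, which leave out the under-limit Col4a2, varied together only weakly. Col4a1 had r of 0.04 with Col4a3, 0.01 with Col4a4 and 0.12 with Col4a6. Col4a3 with Col4a4, whose proteins assemble together in kidney, had 0.23.

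Strong pairs were found within and between classes. Col6a1 and Col6a2, chains of the beaded filament collagen VI that is abundant around adipocytes, had the highest r at 0.84, and it lay between 0.81 and 0.89 within the 3 sets. Col15a1 and Col18a1, the basement membrane zone collagens, had 0.81. Col5a1 with Col6a1 (0.82), Col5a3 with Col4a1 (0.79), Col4a1 with Col6a1 (0.78) and Col5a1 with Col4a1 (0.77) tied the fibrillar type V chains to basement membrane and beaded filament chains. Each of these pairs had an r above 0.7 in every set. Col1a1 had 0.69 with Col1a2 and 0.69 with Loxl1, a lysyl oxidase that also cross-links elastin. The under-limit Col4a2 had an r of 0.72 with Col4a1 and 0.35 with Col1a1 over the 139 arrays that measured it, and Col6a3 had 0.71 with Col6a1 and 0.74 with Col1a1 over 99.

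**Figure D2:**
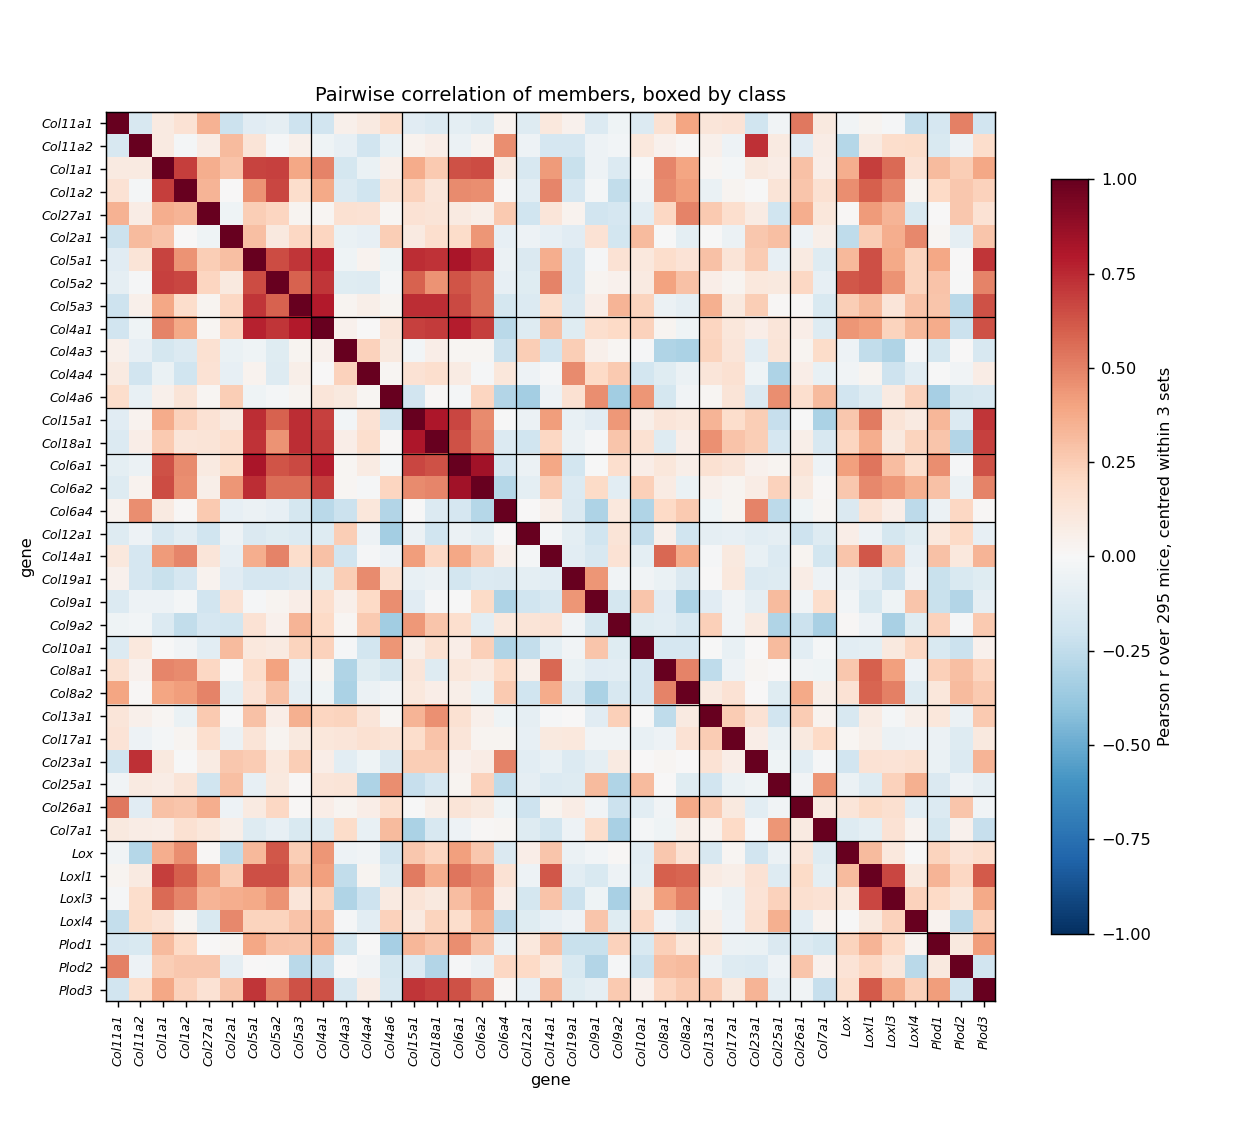
Pearson r of every pair of the 39 members over 295 mice, centred within the 3 sets of arrays; both axes list genes by class, with black lines between classes, red for positive and blue for negative r. A red patch joins Col5a1, Col5a2, Col5a3, Col4a1, Col15a1, Col18a1, Col6a1 and Col6a2 across 4 classes, while Col4a3, Col4a4 and Col4a6 are pale against Col4a1.

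To compare the classes gene by gene, each member was set against Col1a1 as the fibrillar gene and Col4a1 as the basement membrane gene in 1 fit. The anchors themselves had r = 0.50 with each other (Spearman rho 0.47, permutation p = 1e-05 for each, the smallest that 100000 resamples can give, and r = 0.45 without the 2 mice farthest from the Col1a1 median). The contrast is the difference between a gene's slopes on the 2 anchors, in log2 units per SD of an anchor, tested with limma and adjusted over all probes. Of 37 members, 13 were nearer Col1a1, against 24.6% of all genes, and 13 nearer Col4a1, against 30.1%, so that 11 showed no called difference. The count without the 3 low arrays was 13 nearer Col1a1 and 12 nearer Col4a1.

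Fibrillar genes fell on both sides. Nearer Col1a1 were Col1a2 (r 0.69 with Col1a1 and 0.38 with Col4a1, contrast 0.33 ± 0.05 SE, adjusted p = 1.27e-10), Col27a1 (0.37 and 0.02), Col11a1 (0.09 and -0.19) and Col11a2 (0.09 and -0.04). Nearer Col4a1 were Col5a3 (r 0.39 with Col1a1 and 0.79 with Col4a1, contrast -0.48 ± 0.04 SE, adjusted p = 2.09e-23) and, by a smaller margin, Col5a1 (0.68 and 0.77, contrast -0.08 ± 0.02 SE, adjusted p = 0.00277). Within sets the Col5a1 contrast was called only in the Eif2s3y-high arrays without epididymis transcripts (-0.12). It was -0.02 in the Eif2s3y-low arrays and -0.06 in the arrays with epididymis transcripts. Col5a2 followed both (0.68 and 0.72), and Col2a1, the main collagen of cartilage, had 0.29 and 0.22; neither contrast was called. The Col5a2 contrast had opposite signs in the Eif2s3y-low arrays (-0.22) and in the other sets (0.16 in each), a difference that was not tested.

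Of the basement membrane genes, Col4a3, Col4a4 and Col4a6 showed little tie to either anchor. Col4a2, under the measurement limit and not in this fit, had an r of 0.72 with Col4a1 over 139 arrays. Col4a3 was called nearer Col4a1 (contrast -0.10 ± 0.03 SE, adjusted p = 0.000632), with an r of 0.04 to Col4a1 and -0.18 to Col1a1. Within sets its contrast was called only in the Eif2s3y-high arrays without epididymis transcripts (-0.16). It was -0.03 in the Eif2s3y-low arrays and -0.14 in the arrays with epididymis transcripts. Contrasts of Col4a4 (-0.04 ± 0.03 SE) and Col4a6 (-0.06 ± 0.05 SE) were not called, with adjusted p of 0.314 and 0.277 in limma. Both basement membrane zone genes were nearer Col4a1: Col18a1, whose protein releases endostatin, had r of 0.70 with Col4a1 and 0.26 with Col1a1, and Col15a1 had 0.68 and 0.37.

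The remaining classes were split as well. Nearer Col1a1 were the network genes Col8a1 (r 0.49 with Col1a1 and 0.03 with Col4a1) and Col8a2 (0.40 and -0.04) and the fibril-associated Col14a1 (0.42 and 0.29). So were Col26a1 (0.30 and 0.07), Col6a4 (0.09 and -0.27) and Col7a1 (0.06 and -0.13). Being nearer an anchor did not require a called relation with it. With Col1a1 alone, Col6a4, Col7a1, Col11a1 and Col11a2 were not called (adjusted p of 0.238, 0.438, 0.223 and 0.241 in limma). Nor were Col4a3 and Col17a1 with Col4a1 alone (adjusted p of 0.553 and 0.0941 in limma). The Col8a1 contrast, 0.55 ± 0.06 SE over all mice (adjusted p = 2.08e-16 in limma), was -0.07 in the Eif2s3y-low arrays and 1.07 and 1.22 in the other sets, and that of Col14a1 was -0.17, 0.39 and 0.36. The Loxl1 contrast likewise was near 0 (adjusted p = 0.997 in limma) in the Eif2s3y-low arrays, where it had r of 0.55 with each anchor, and 0.43 and 0.54 in the other sets. These differences between sets were not tested. Of the enzymes, Loxl1 (0.69 and 0.41), Loxl3 (0.56 and 0.22) and Plod2, the hydroxylase of collagen's end regions (0.25 and -0.22), were nearer Col1a1. Plod3, which also glycosylates collagen (0.39 and 0.63), Loxl4 and Col6a1 (0.64 and 0.78) were nearer Col4a1, with Col9a1, Col9a2, Col10a1, Col13a1 and Col17a1. Within sets the Col6a1 contrast was called only in the Eif2s3y-high arrays without epididymis transcripts (-0.17). It was -0.04 in the Eif2s3y-low arrays and -0.10 in the arrays with epididymis transcripts. The Col17a1 contrast was lost without the 3 low arrays (adjusted p = 0.0456 with them and 0.0867 without them, in limma). Lox itself, at 0.36 and 0.44, and Plod1, at 0.31 and 0.37, showed no called difference. The other 9 without one were Col2a1, Col5a2, Col4a4, Col4a6, Col6a2, Col12a1, Col19a1, Col23a1 and Col25a1.

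**Figure D3:**
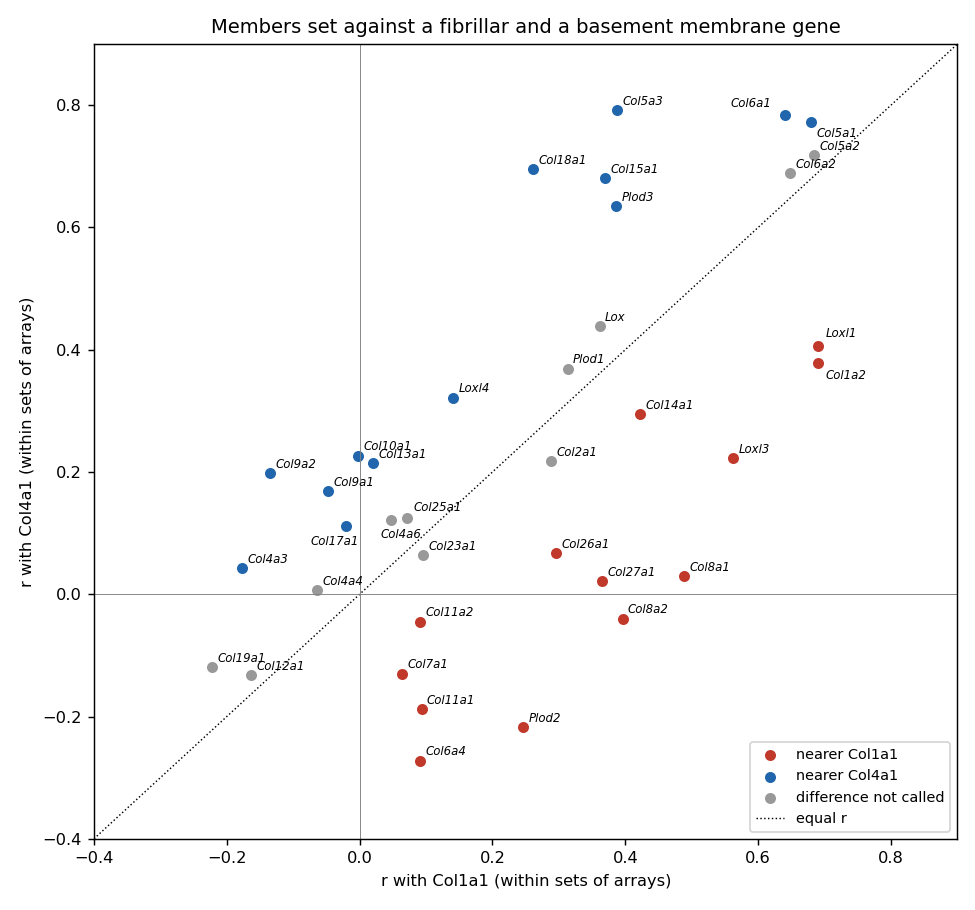
Each point is 1 of 37 members, placed by its r with Col1a1 (x axis) and its r with Col4a1 (y axis) over 295 mice within the 3 sets of arrays; the dotted line is equal r. Red points (nearer Col1a1) and blue points (nearer Col4a1) passed the limma contrast at an adjusted p under 0.05, and Col5a1, Col5a2, Col6a1 and Col6a2 stand together at the top right.

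Side by side with these 2 anchors, the genes outside the family with the highest r differed. For Col1a1 they were Pcolce, an enhancer of procollagen cleavage (0.72), Mfap2, a microfibril protein (0.70), HOOK2 (0.70), Pimreg (0.67), Cd248, Anpep, Elovl1 and Tmem119. For Col4a1 they were Nid2 (0.72) and Nid1 (0.70), which link laminin to type IV collagen, Lrpap1 (0.72), Ppic (0.71), Olfm1, Serpina3n, Vac14 and Inpp5e. The lowest r with Col1a1 belonged to Aldh6a1 (-0.58) and Hibadh (-0.57), both enzymes of valine breakdown, and the lowest with Col4a1 to Rnf114 (-0.57) and Phf6 (-0.56). Across all genes, 18% were called higher with Col1a1 and 31.1% higher with Col4a1, and 21 of 38 members were called higher with each.

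Among basement membrane partners (such as laminins, nidogens and agrin, 11 of 15 measured), 7 were nearer Col4a1 and 1 nearer Col1a1 in limma. Nid1 had r of 0.70 with Col4a1 and 0.04 with Col1a1, and Lama4, the laminin chain of endothelium and adipocytes, 0.48 and -0.01. Lama1, the 1 gene nearer Col1a1, had -0.16 with Col4a1 and 0.01 with Col1a1. Among partners of interstitial fibrils (9 of 12 measured), 4 were nearer Col1a1 and the other 5 were not called: the 4 were Lum, Bgn, Fbln1 and Tnc, with an r of 0.51 for Bgn, a fibril-bound proteoglycan. Of 12 genes of matrix turnover, 8 were nearer Col1a1, with Mmp2 and Timp1 both at 0.58, and 2 were nearer Col4a1, Timp3 and Timp4. Of 13 measured genes of collagen processing, 3 were nearer Col1a1 and 5 nearer Col4a1, and of 8 measured profibrotic signal genes 3 and 1. These lists are read as counts only, against the 24.6% and 30.1% given above for all genes.

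Lep encodes leptin, the hormone that adipocytes release in step with their fat content, and its ratio served as a measure of that axis since body weight is not given. In limma, 16 of 39 members were higher with Lep, against 32.2% of all genes, and 9 were lower, against 31.5%. At an absolute r of 0.3 or more, 8 were higher, against 12.7% of all genes, and 2 lower, against 9.62%. Without the 3 low arrays 14 were higher and 10 lower: Col9a2 and Plod3 were no longer called higher, Col19a1 was no longer called lower, and Loxl1 and Col23a1 were called lower. The 8 then became 5: Col5a2, Col5a3, Col4a1, Col10a1 and Lox kept an r of 0.3 or more, while Col18a1, Col6a1 and Loxl4 fell just under it (0.26, 0.29 and 0.29). The 2 lower became 3, with Col11a1 added. The median r was 0.09 over the members and -0.005 over all genes.

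Col4a1 followed Lep most closely of all members. Its r was 0.57 (rho 0.54, permutation p = 1e-05 each, adjusted p = 1.57e-05 and 1.83e-05 over 11 relations), with a slope of 0.53 ± 0.04 SE log2 units per log2 unit of Lep, and it was 0.63, 0.50 and 0.56 in the Eif2s3y-low, Eif2s3y-high and epididymis sets. Without the 2 mice farthest from the Lep median it was 0.56. Col5a3 (0.44), Col5a2 (0.40), Lox (0.37), Col10a1 (0.35), Col6a1 (0.35) and Col18a1 (0.33) came next. Col1a1 had an r of 0.12 with Lep (rho 0.12, permutation p = 0.0398 and 0.0484, adjusted p = 0.0398 and 0.0532), positive in the Eif2s3y-low arrays (0.28) and near 0 in the other sets (-0.04 and -0.05), and its limma slope was not called (adjusted p = 0.0589). Lower with Lep were Col6a4 (-0.36), Col27a1 (-0.31), Col11a1 (-0.29), Plod2 (-0.28), Col8a2 (-0.24), Col11a2, Col19a1, Col8a1 and Col4a4.

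Of 9 fibrillar genes the 3 type V chains were higher with Lep and Col11a1, Col11a2 and Col27a1 lower, which is 33.3% in each direction and near the 32.2% and 31.5% of all genes. Of 4 basement membrane genes Col4a1 and Col4a6 were higher and Col4a4 lower. For the anchors the difference itself was tested: r with Lep was higher for Col4a1 than for Col1a1 by 0.45 (permutation p = 1e-05, adjusted p = 1.25e-05 over 5 such differences).

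The tissue is bulk, so more cells of a type and more RNA per cell cannot be told apart in any of the following. Marker scores, the mean standardised ratio of a list of marker genes, were used as regressors, and none of the lists holds a collagen or lysyl oxidase gene. Macrophage markers (13 of 16 measured) ran from -2.43 to 1.85, endothelial markers (10 of 12) from -2.97 to 1.57, adipocyte markers (8 of 12) from -2.98 to 1.72 and fibroblast markers (8 of 10) from -2.53 to 1.28. The scores were related to each other: the macrophage score had r of -0.58 with the adipocyte and -0.43 with the endothelial score, which had 0.75 between them, so these relations are not independent of one another. With Lep, the 4 scores had r of 0.11, 0.39, 0.39 and 0.22 in the same order.

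With the macrophage score, 18 members were higher, against 23.9% of all genes, and 6 lower, against 30.5%. At an absolute r of 0.3 or more 8 were higher, against 12.4% of all genes: Loxl3 (0.61), Col5a2 (0.54), Col1a2 (0.51), Loxl1 (0.51), Col8a2 (0.47), Col8a1 (0.46), Col1a1 (0.46) and Lox (0.45). The same 8 genes passed without the 3 low arrays. Lower were Col4a3 (-0.40), Col9a2 (-0.37), Col4a4 (-0.26), Col13a1, Col17a1 and Col19a1. Without the 3 low arrays 5 were lower, against 30.8% of all genes, and Col19a1 was no longer called. Col8a1 had 0.07 in the Eif2s3y-low arrays and 0.73 and 0.78 in the other sets, where its SD was 0.76 and 0.71 against 0.31 in the Eif2s3y-low arrays. Of the fibrillar genes 5 of 9 were higher, and of the basement membrane genes Col4a1 was higher (0.16) and Col4a3 and Col4a4 lower. Within sets, Col1a1 had 0.33, 0.64 and 0.54 with this score, while Col4a1 had 0.34 in the Eif2s3y-low arrays and -0.05 and -0.07 in the others, so the Col4a1 relation did not hold in every set. Over all mice Col1a1 exceeded Col4a1 by 0.29 in r with the macrophage score (permutation p = 1e-05, adjusted p = 1.25e-05). The 2 genes had almost the same r in the Eif2s3y-low arrays (0.33 and 0.34), and the difference was not tested within sets.

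With the endothelial score, 16 members were higher, against 33.5% of all genes, and 12 lower, against 26.3%. With the adipocyte score, 16 were higher, against 27.7%, and 12 lower, against 23.8%. The same 12 genes were lower with both scores, which share much of their variation: Col1a1, Col1a2, Col11a1, Col27a1, Col6a4, Col8a1, Col8a2, Col26a1, Col7a1, Loxl1, Loxl3 and Plod2. Without the 3 low arrays Col5a2 was lower with both as well, 17 members were higher and 13 lower with the endothelial score, and 14 were higher and 14 lower with the adipocyte score, where Lox was also lower and Col6a2 and Loxl4 were no longer called higher. Another 15 members were higher with both scores over all arrays, among them Col5a3 (0.42 with the endothelial and 0.50 with the adipocyte score), Col18a1 (0.49 and 0.50), Col4a1 (0.47 and 0.39), Col15a1 (0.36 and 0.46), Col6a1 (0.36 and 0.31) and Col9a2 (0.34 and 0.59). The others were Col5a1 (0.35 and 0.26), Col4a3, Col4a4, Col6a2, Col10a1, Col13a1, Loxl4, Plod1 and Plod3. Col9a2, a fibril-associated chain best known from cartilage, had the highest r of any member with the adipocyte score, while Col8a2 had the lowest at -0.51. The anchors lay on opposite sides: Col4a1 exceeded Col1a1 by 0.62 in r with the endothelial and by 0.64 with the adipocyte score (permutation p = 1e-05, adjusted p = 1.25e-05 each). Within the arrays with epididymis transcripts, Col1a1 had positive r with both scores (0.21 and 0.07), unlike in the other sets.

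With the fibroblast score, 14 members were higher, against 19.8% of all genes, and 5 lower, against 22.1%. Without the 3 low arrays 9 were higher and 9 lower, so the counts depend on those arrays. The 6 genes with an r of 0.3 or more, against 6.12% of all genes, were the same with and without them: Col14a1 (0.63), Col5a2 (0.55), Col1a2 (0.48), Loxl1 (0.46), Lox (0.46) and Col8a1 (0.43). Col1a1 had 0.28 and Col4a1 0.22, a difference of -0.06 that was not called (permutation p = 0.289). The rho of Col4a1 with this score was 0.08 (permutation p = 0.175, adjusted p = 0.175), below its r, and within sets its r was 0.41, -0.08 and 0.09. The 8 fibroblast markers had a mean pairwise r of 0.15, against 0.78 among macrophage markers, so this score is the least coherent of the 4.

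Members also varied with markers of other cell types that an adipose sample can hold. With the score of 8 epithelial markers, 9 members were higher, against 14.9% of all genes, and 15 lower, against 26.5%, in limma. Col7a1, the anchoring fibril collagen below epithelia, had the highest r at 0.59, followed by Col11a1 (0.43), Col4a6 (0.41) and Col17a1 (0.38), while Plod3 had -0.39 and Col15a1 -0.35. With the score of 5 measured mural and smooth muscle markers, 6 members were higher, against 25.5%, and 18 lower, against 32.7%, from Col17a1 at 0.32 to Loxl4 at -0.35. With the 3 measured mesothelial markers, 12 were higher and 4 lower, each against 31.4% of all genes, from Col4a6 at 0.55 to Lox at -0.35. These 3 markers had a mean pairwise r of 0.03.

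With the pancreas genes Prss1 and Cpb1, whose score ran from -1.37 to 5.87, 8 members were higher, against 22.5% of all genes, and 4 lower, against 26.6%, and Col7a1 and Col2a1 had the highest r at 0.38 and 0.33. With the score of 5 measured cartilage markers, 5 were higher, against 13.5%, and 4 lower, against 9.97%, and Col2a1, the cartilage collagen, had 0.05. With the score of 6 skeletal muscle markers, the members' r lay between -0.14 (Col26a1) and 0.13 (Loxl4) and the smallest adjusted p in limma was 0.295, while 0.725% of all genes were called higher and 0.0699% lower. The part of these other cell types in the members' relations with Lep was not tested.

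**Figure D4:**
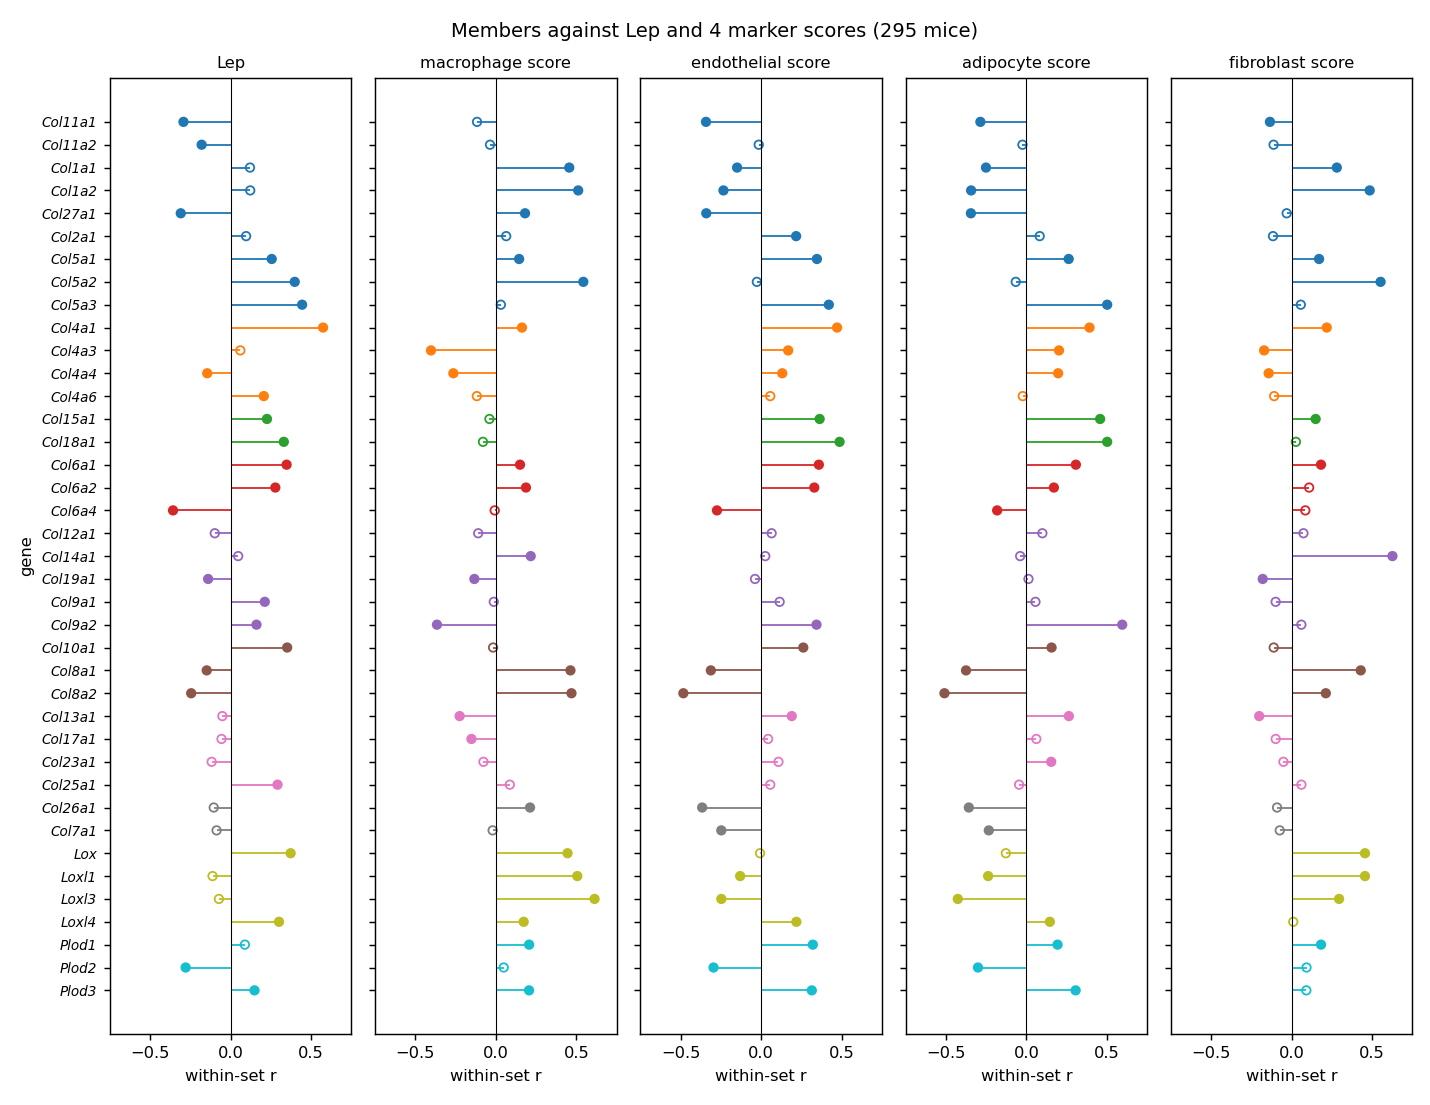
The r of each of the 39 members (y axis, coloured by class in the order of the list) with Lep and with the macrophage, endothelial, adipocyte and fibroblast marker scores (x axis of each panel) over 295 mice within the 3 sets of arrays. Filled points passed limma at an adjusted p under 0.05 over all probes; Col4a1 leads with Lep, Loxl3 with macrophage markers and Col14a1 with fibroblast markers.

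With the 4 scores as covariates, 11 members stayed higher or became higher with Lep, against 31% of all genes, and 16 lower, against 33.8%. Col4a1 kept a slope of 0.25 ± 0.05 SE (adjusted p = 1.08e-06 in limma), and Lox and Col10a1 kept 0.32 ± 0.07 SE and 0.17 ± 0.03 SE. Col6a1, Col6a2 and Col18a1 had slopes of 0.03 ± 0.05 SE, 0.04 ± 0.07 SE and 0.01 ± 0.05 SE, none called. Lower with Lep in this fit were Loxl1, at -0.36 ± 0.05 SE (adjusted p = 2.43e-10), and Plod1, at -0.18 ± 0.04 SE (adjusted p = 4.11e-06), neither of which was called without the covariates. Plod3 and Col15a1 turned from higher to lower, at -0.16 ± 0.03 SE and -0.12 ± 0.05 SE (adjusted p = 1.18e-05 and 0.0455 in limma). Col4a6, the chain of smooth muscle and epithelial basement membranes, had the highest r with Lep in this fit at 0.35.

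The slope on Lep was compared between the Eif2s3y-low arrays and the Eif2s3y-high arrays without epididymis transcripts. In limma, 10 of 39 members had a slope higher in signed value in the Eif2s3y-low arrays, against 11.7% of all genes, and 1 a lower one, against 14.2%. Without the 3 low arrays 7 and 1 were called, against 16.1% and 19.1% of all genes. The first count was then near the share of all genes and the second under it.

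Loxl3 had the smallest adjusted p of these. Its slope was 0.10 ± 0.04 SE in the Eif2s3y-low arrays and -0.22 ± 0.04 SE in the Eif2s3y-high arrays, a difference of 0.32 ± 0.06 SE (adjusted p = 7.38e-06). Col5a2 had 0.73 ± 0.08 SE and 0.12 ± 0.08 SE, a difference of 0.61 ± 0.11 SE (adjusted p = 1.54e-05), which was 0.46 (adjusted p = 0.000415) without the 3 low arrays. Loxl1 (0.13 and -0.38) and Col8a1 (0.16 and -0.52) had slopes of opposite sign, while for Col8a2 both were negative (-0.08 and -0.35).

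Col1a2 (0.39 and -0.08) and Loxl4 (0.14 and 0.04) also kept their call without the 3 arrays. The calls of Col1a1 (0.39 and -0.05), Lox (0.61 and 0.25) and Col14a1 (0.18 and -0.15) did not: their adjusted p rose from 0.0441, 0.0364 and 0.0374 to 0.100, 0.146 and 0.128. Col9a2 was the 1 gene with the lower signed slope in the Eif2s3y-low arrays (-0.04 and 0.22). Col4a1, with slopes of 0.60 ± 0.06 SE and 0.42 ± 0.07 SE, differed by 0.18 ± 0.09 SE and was not called (adjusted p = 0.142).

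**Figure D5:**
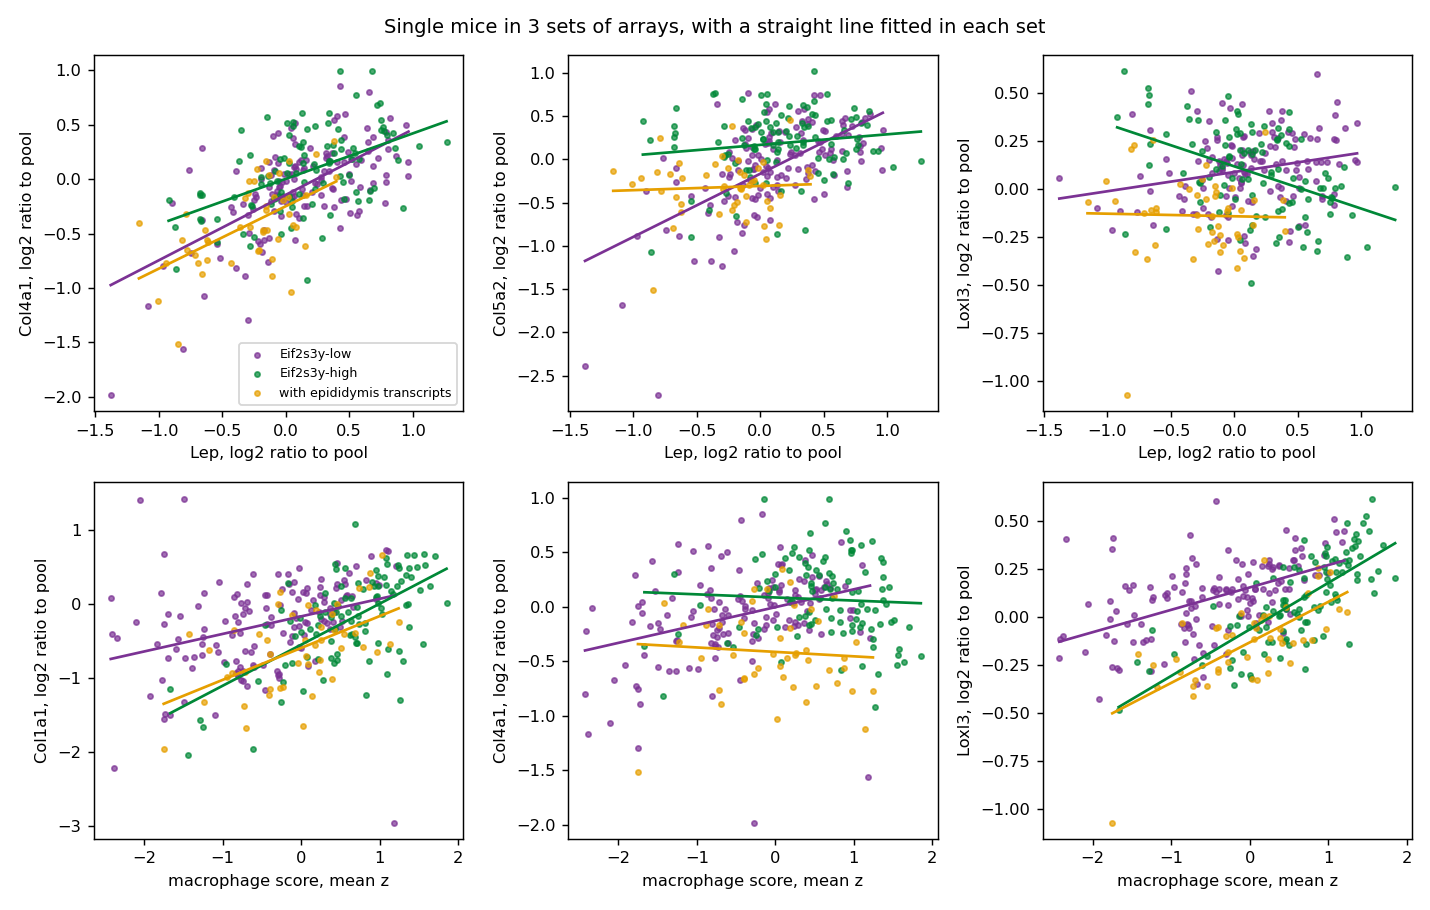
Single mice in 6 panels, with the log2 ratio of Lep (upper panels) or the macrophage score (lower panels) on the x axis and the log2 ratio of a member on the y axis; purple points are the 142 Eif2s3y-low arrays, green the 105 Eif2s3y-high arrays without epididymis transcripts and orange the 48 with them, with a straight line fitted in each set. For Col5a2 against Lep, the purple points of mice 112 and 195 lie at -2.72 and -2.39, with Lep of -0.81 and -1.38. The green line for Loxl3 against Lep falls where the purple one rises.

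Genes with more than 1 probe did not always give 1 answer. The 2 probes of Col1a2 had an r of -0.26 with each other: the more variable one, used above, had 0.51 with the macrophage and -0.34 with the adipocyte score, and the other -0.36 and 0.51. The Col1a2 values therefore hold for 1 probe only. The 2 probes of Loxl1 had r = 0.14, and the other one had 0.14 with the macrophage and 0.10 with the adipocyte score, against 0.51 and -0.24 for the one used. The 2 probes of Col23a1 had r = 0.11 and opposite signs with both scores (-0.08 and 0.15 for the one used, 0.22 and -0.08 for the other). The Loxl1 and Col23a1 values too hold for 1 probe only. The 3 set-aside probes named Col1a1 had r of -0.21, -0.26 and -0.04 with the Col1a1 probe used, and -0.53, -0.45 and -0.01 with the macrophage score, where that probe had 0.46.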

How the data were processed

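RNA of adipose tissue from 295 mice was measured on 2-colour arrays, with 1 mouse per array against a common pool. The labels' text speaks of 330 mice, and 295 arrays were analysed here. The deposited values are log10 ratios as read from their range, normalized by the authors in a way not given in the sources used here. Their scale, centring and direction are not stated, and they were multiplied by 3.32 to give log2. Of 23387 probes, 22894 measured on 90% or more of the arrays were tested and 493 left out, and 7762 gaps were filled with the probe's mean. A symbol came from the platform's probe table: 13644 probes had 1, 48 had several and 9695 had none. Of the probes with 1 symbol, 12652 carried a gene identifier found in the mouse gene table. Probes without such an identifier were set aside only for members. Those of other genes were kept under the probe table's symbol and count among all genes. A gene is represented by its most variable probe.

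The arrays' sets were cut at a log2 ratio of -2 for Eif2s3y and a score of 1 for epididymis markers, between 0.753 and 1.74. Each regressor was fitted with limma 3.58.1 (lmFit, eBayes) in R 4.3.3, with the sets as a block and Benjamini-Hochberg adjustment over all probes, and called at 0.05. Single relations used two-sided permutation tests within sets (100000 resamples) in Python 3.11.15. The fit was tested on simulated data for Lep, where 195 of 200 changed probes were recovered with 7 false calls over 22894 probes. The simulated noise was independent between probes, while genes in these data do not vary independently and far more were called with Lep. The simulation therefore shows that the fit recovers added slopes and gives no error rate for the calls above. Every member was accounted for. Of other genes, the text names Lep, genes of fixed lists, and the 8 genes with the highest and 4 with the lowest r to each anchor. The members and lists were chosen with earlier results of these data known. How precise a value is depends on how many arrays gave it. Alternatives covered the block, the sets, array medians, the first principal component, ranks, the probe filter, the probe choice and the mouse number in 3 ranges as a further block. The anchor pairs Col1a2 with Col4a1 and Col5a2 with Col4a1, cell type covariates and leaving out the 3 low arrays were chosen after seeing the data.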

Additional observations from a re-analysis of the deposited data

Results flagged for a closer look

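The slope on Lep differed between the Eif2s3y-low arrays and the Eif2s3y-high arrays without epididymis transcripts, by limma's test of the difference, for 11 of 39 members: 10 with a higher signed slope in the Eif2s3y-low arrays, against 11.7% of all genes, and 1 with a lower one, against 14.2%. Without the 3 low arrays 7 and 1 were called, against 16.1% and 19.1%, so the first count was near the share of all genes and the second under it. The signed slope in the Eif2s3y-low arrays minus that in the Eif2s3y-high arrays was 0.69 for Col8a1, 0.61 for Col5a2, 0.51 for Loxl1, 0.47 for Col1a2, 0.45 for Col1a1, 0.36 for Lox, 0.33 for Col14a1, 0.32 for Loxl3, 0.27 for Col8a2 and 0.11 for Loxl4, in log2 units per log2 unit of Lep. For Col9a2 the difference was -0.26. The differences of Col1a1, Lox and Col14a1 were no longer called without the 3 low arrays, at 0.35, 0.24 and 0.23.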

How the results depend on the processing

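No paired analysis was possible because the mice form 1 group and each mouse number occurs once. The planned anchors Col5a2 and Col4a2 were not run, since Col4a2 was measured on 47.1% of arrays. With Col1a2 or Col5a2 in place of Col1a1, 12 and 13 members were nearer the fibrillar anchor and 16 and 16 nearer Col4a1. Among 55 results on single genes, each taken under several alternatives, 487 values kept direction and call, 2 lost the call and 6 reversed. All 55 kept direction and call without the 3 low arrays. The calls named above as lost without those arrays are therefore not among the 55, so these counts do not cover every call. With the other Col1a2 probe, its r was 0.51 with the adipocyte, -0.0736 with the fibroblast and -0.36 with the macrophage score. With no block for sets, Col26a1 had 0.0841 with the adipocyte and 0.11 with the endothelial score, and Plod2 0.16 with the adipocyte score. The Col4a1 minus Col1a1 difference with the fibroblast score was -0.13 on normal scores of ranks (permutation adjusted p = 0.0401). With cell type scores as covariates 16 members were lower with Lep. With the fibroblast score, 9 were higher and 9 lower without the 3 low arrays, and the 5 lower became 3 with array medians removed, 3 on normal scores, 3 with the mouse number in 3 ranges as a block and 1 without the arrays with epididymis transcripts. The cause was not tested.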
